A study of Rattus norvegicus with 15 samples.

Results

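Collagens are triple-helical proteins that give the wall of the gut its strength. Types I, III and V form the fibrils of the lamina propria, submucosa and muscle layers, types such as XII and XVI sit on the surface of fibrils, type VI forms beaded filaments around cells, and type IV is the network of basement membranes under epithelium, endothelium and muscle. Lysyl oxidases cross-link the fibrils, matrix metalloproteinases (Mmp genes) cut collagens and other matrix proteins, and tissue inhibitors of metalloproteinases (Timp genes) bind and block those enzymes, so that the matrix at any time reflects its making, its cross-linking and its removal.

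The genes described here were taken by name: every array probe whose gene name was that of a collagen chain, or began with Timp or Lox, or was Mmp followed by a number other than Mmp7. This gave 65 of the 17338 named genes of the array, which are 33 collagen chains, 22 metalloproteinases, 5 lysyl oxidases, 4 inhibitors and Loxhd1, a gene of the inner ear that shares only the letters of its name with the lysyl oxidases. Each gene is represented by its brightest probe; 41 of the genes had 1 probe and 24 had several. Genes whose probe stood well above background on all arrays of any group were tested, and 50 passed: 27 collagens, 15 metalloproteinases, 4 lysyl oxidases and 4 inhibitors. Col2a1, Col4a3, Col6a6, Col10a1, Col11a1, Col14a1, Loxl3, Loxhd1, Mmp1, Mmp3, Mmp8, Mmp17, Mmp20, Mmp21 and Mmp27 were not tested. Mmp9 passed only through the group with gastric bypass, where it was high.

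Whole-genome expression had been measured in a segment of intestine from 15 male rats, 5 a group and 1 array per rat. The Goto-Kakizaki (GK) strain, derived from Wistar stock, inherits type 2 diabetes without obesity. GK-S-30 rats had Roux-en-Y gastric bypass (RYGB), which joins a divided loop of intestine, the Roux limb (RL), to a small stomach pouch; the RL was 30 cm long, and the segment was cut from it near the join with the stomach. GK-Sham-PF rats had a sham operation, in which the intestine was cut 16 cm from the ligament of Treitz and rejoined. They were pair-fed to the lowest mean intake among the bypass groups of the study. Wistar rats had no operation. In these groups the segment came from the corresponding stretch of intestine, which had not been rearranged. In sham rats this stretch lay a short way beyond the rejoined cut. GK rats were operated on at 16 wk of age, and tissue was taken 14 wk later after an overnight fast. GK-S-30 therefore differed from GK-Sham-PF by the operation, by the pair-feeding of sham rats and by where along the rearranged gut the segment lay. GK-Sham-PF differed from Wistar by strain, sham operation and pair-feeding. GK-S-30 differed from Wistar by strain, by RYGB and by where the segment lay. Such differences cannot be told apart within a pair. These groups are called RYGB, sham and Wistar rats below. In a piece of whole intestine, fewer cells of a type and less RNA per cell cannot be told apart.

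To show the genes on which the results turn, the sequence just before their transcription start is printed from RefSeq (build GRCr8), in lower case with 4 short motifs in capitals. The motifs, searched on both strands over the 250 bases before the start, were TGANTCA, which AP-1 factors bind, the CCAAT box, the TATA box in the form TATAAA, and GGGCGG, which factors of the Sp1 type bind. None overlapped another in the stretches shown. An entry existed for 50 of the 65 genes, with 53 starts in all, and not for Col1a1, Col3a1 or Col6a2. TGANTCA was in 13.2% of these 53 windows and in 6.3% of all 33469, TATAAA in 18.9% and 12.9%, CCAAT in 22.6% and 34.0%, and GGGCGG in 54.7% and 30.5%. A match is only a match of letters.

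Timp1 and Col8a1 are shown because they had the largest rises after RYGB. These are the 150 bases before the start of Timp1 (chrX:3771123-3771272, minus strand) and the 200 before that of Col8a1 (chr11:56246582-56246781, plus strand). The GGGCGG motif began 142 bases before the Timp1 start, and lay 4 times before the Col8a1 start, all on the opposite strand.
Timp1: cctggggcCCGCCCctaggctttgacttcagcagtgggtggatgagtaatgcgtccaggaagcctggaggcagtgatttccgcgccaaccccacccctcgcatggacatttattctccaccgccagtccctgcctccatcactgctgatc
Col8a1: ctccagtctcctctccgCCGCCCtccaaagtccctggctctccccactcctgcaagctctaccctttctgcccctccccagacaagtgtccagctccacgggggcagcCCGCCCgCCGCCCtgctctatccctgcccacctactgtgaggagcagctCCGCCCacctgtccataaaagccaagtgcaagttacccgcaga

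Col4a1 and Col4a2 are shown because these 2 chains, which assemble into the same collagen IV molecule, start back to back: their starts faced away from each other with 76 bases between them (chr16:84885521-84885596, printed on the strand of Col4a1). Col1a2 stands for the fibrillar chains, with the first 100 of the 250 bases before its start (chr4:33518307-33518406, plus strand), which hold a CCAAT motif on the opposite strand and a TATAAA motif.
Col4a1 and Col4a2: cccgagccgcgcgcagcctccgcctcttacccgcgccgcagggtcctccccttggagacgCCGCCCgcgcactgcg
Col1a2: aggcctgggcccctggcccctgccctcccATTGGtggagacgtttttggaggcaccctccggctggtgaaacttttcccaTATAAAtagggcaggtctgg

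Mmp10 and Mmp13 are secreted metalloproteinases that lie close together on chromosome 8. Both were called higher in RYGB than in Wistar rats, Mmp13 only barely (limma, adjusted p = 0.0472). The Mmp13 call was lost on leaving out any of 12 arrays in turn. The 100 bases before the starts of Mmp10 (chr8:12974607-12974706) and Mmp13 (chr8:12782729-12782828), both on the plus strand, each hold TGANTCA, starting 61 and 66 bases before the start, followed by TATAAA. The 7 windows with TGANTCA were those of Mmp1, Mmp3, Mmp10, Mmp12, Mmp13, Mmp20 and Col6a1.
Mmp10: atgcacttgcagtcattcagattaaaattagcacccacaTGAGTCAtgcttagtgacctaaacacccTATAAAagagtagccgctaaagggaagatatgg
Mmp13: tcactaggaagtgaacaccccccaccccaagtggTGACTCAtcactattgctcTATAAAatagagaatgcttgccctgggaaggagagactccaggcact

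The share of probes well above background ran from 66.7% to 74.7% over the arrays. The 75th percentile of signal was about 224 on the third Wistar array and the fifth sham array, called dim here, and between 329 and 384 on the other 13. The arrays lay on 4 slides, here called A to D: A held 4 Wistar arrays, B 1 Wistar and 3 sham, C 2 sham and 2 RYGB, and D 3 RYGB arrays, so RYGB and Wistar shared no slide. Markers of the labelled tissue were present: all 15 enterocyte markers on the array passed the background filter, against 3 of 8 markers of gastric epithelium. Of 10 tested smooth muscle markers, 6 were higher in RYGB than in sham rats and 7 higher than in Wistar rats, with none lower, and none was called between sham and Wistar rats. Their summed level, the mean of log2 values centred on all arrays, ran from 0.645 to 0.988 in RYGB rats, from -0.601 to 0.035 in Wistar rats and from -0.803 to 0.262 in sham rats, where replicate 4 stood at 0.262 and the others at -0.524 or lower. The levels of 9 fibroblast, 9 endothelial and 15 enterocyte markers overlapped between all groups, although Dpt of fibroblasts, Vwf of endothelium and Krt18 and Krt19 of enterocytes were each higher in RYGB than in sham rats. Of the neutrophil markers, 3 of 8 were tested, and S100a8 and S100a9 were higher in both GK groups than in Wistar rats. Of the markers of other cell types, Mcpt1 and Ms4a2 of mast cells, Prph of enteric neurons, Krt5 of mesothelium and Ctrb1 of pancreatic acini were lower in RYGB than in sham rats and Slc4a1 of red blood cells was higher, while no macrophage or gastric marker was called there. The summed level of 7 enteric neuron and glia markers ran from -0.122 to -0.052 in RYGB, from 0.034 to 0.405 in sham and from -0.218 to 0.041 in Wistar rats, so that RYGB lay below sham with no overlap, and its part in the results was not tested.

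**Figure D1:**
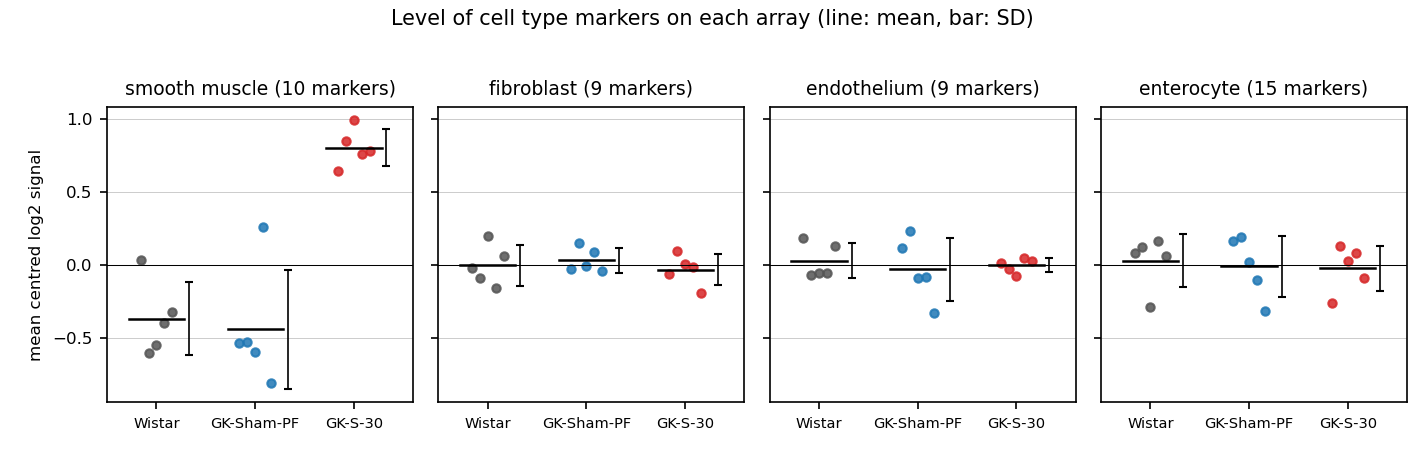
Mean centred log2 signal of the markers of 4 cell types (vertical axis) on each of the 5 arrays of a group, with the group mean as a line and the SD as a bar. The smooth muscle level of every GK-S-30 array was 0.645 or more, higher than on all other arrays, while the other 3 levels overlapped between the groups.

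RYGB was followed by higher levels of the main fibril-forming collagens and of 2 metalloproteinase inhibitors. In RYGB rats compared with sham rats, 13 of the 50 tested genes differed at an adjusted p under 0.05 (limma, Benjamini-Hochberg over all 13013 genes tested), 9 of them higher and 4 lower. Those that rose were Col1a1, Col1a2, Col3a1, Col4a2, Col6a1, Col8a1, Col16a1, Timp1 and Timp2, and those that fell were Col11a2, Col23a1, Col24a1 and Mmp16. Among all genes tested 9.64% were called, 5.16% higher and 4.47% lower. The arrays of the 2 groups did not overlap for 12 of the 50 genes, compared with 8.99% of all genes. The mean was higher after RYGB in 32 of 50 genes, and in 45.0% of all genes. The median log2 difference was 0.26, with -0.03 over all genes. None of the 15 tested Mmp genes was called higher in this comparison, which for so few genes is near the 5.16% of all genes. The RYGB arrays of Mmp19 and Mmp23 lay wholly above the sham arrays without passing (adjusted p = 0.126 and 0.0771).

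Fewer of these genes separated sham from Wistar rats. Col8a1, Col11a2 and Mmp10 were higher in sham rats and Col24a1 was lower. These 4 of 50 genes compare with 8.82% of all genes, 4.19% higher and 4.63% lower. Arrays did not overlap for 4 genes and for 9.68% of all genes. The mean was higher in 30 of 50 genes and in 52.0% of all genes, and the median difference was 0.03, with 0.01 over all genes.

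Compared with Wistar rats, RYGB rats had 23 of 50 genes past the threshold, 19 higher and 4 lower. Over all genes 26.2% were called, 12.4% higher and 13.8% lower. The counts include Mmp9, which passed the filter only through the RYGB group, where it was high, so its call is no support. With genes above background on all 15 arrays, which leaves Mmp9 out, 20 of 45 were called, 17 higher and 3 lower. Over all genes 3125 of 12045 were then called. The 19 were 12 collagen chains, Loxl1, the metalloproteinases Mmp9, Mmp10 and Mmp13 and the inhibitors Timp1, Timp2 and Timp4, and those that fell were Col4a4, Col23a1, Col24a1 and Mmp16. Arrays did not overlap for 13 genes, Mmp9 among them, and for 19.5% of all genes. The mean was higher in 36 of 50 genes and in 47.8% of all genes, with a median difference of 0.32 and -0.02 over all genes. The 3 pairs share groups, so their results are not independent. Of the 50 genes, 24 were called in at least 1 pair, Mmp9 included, and 26 in none.

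**Figure D2:**
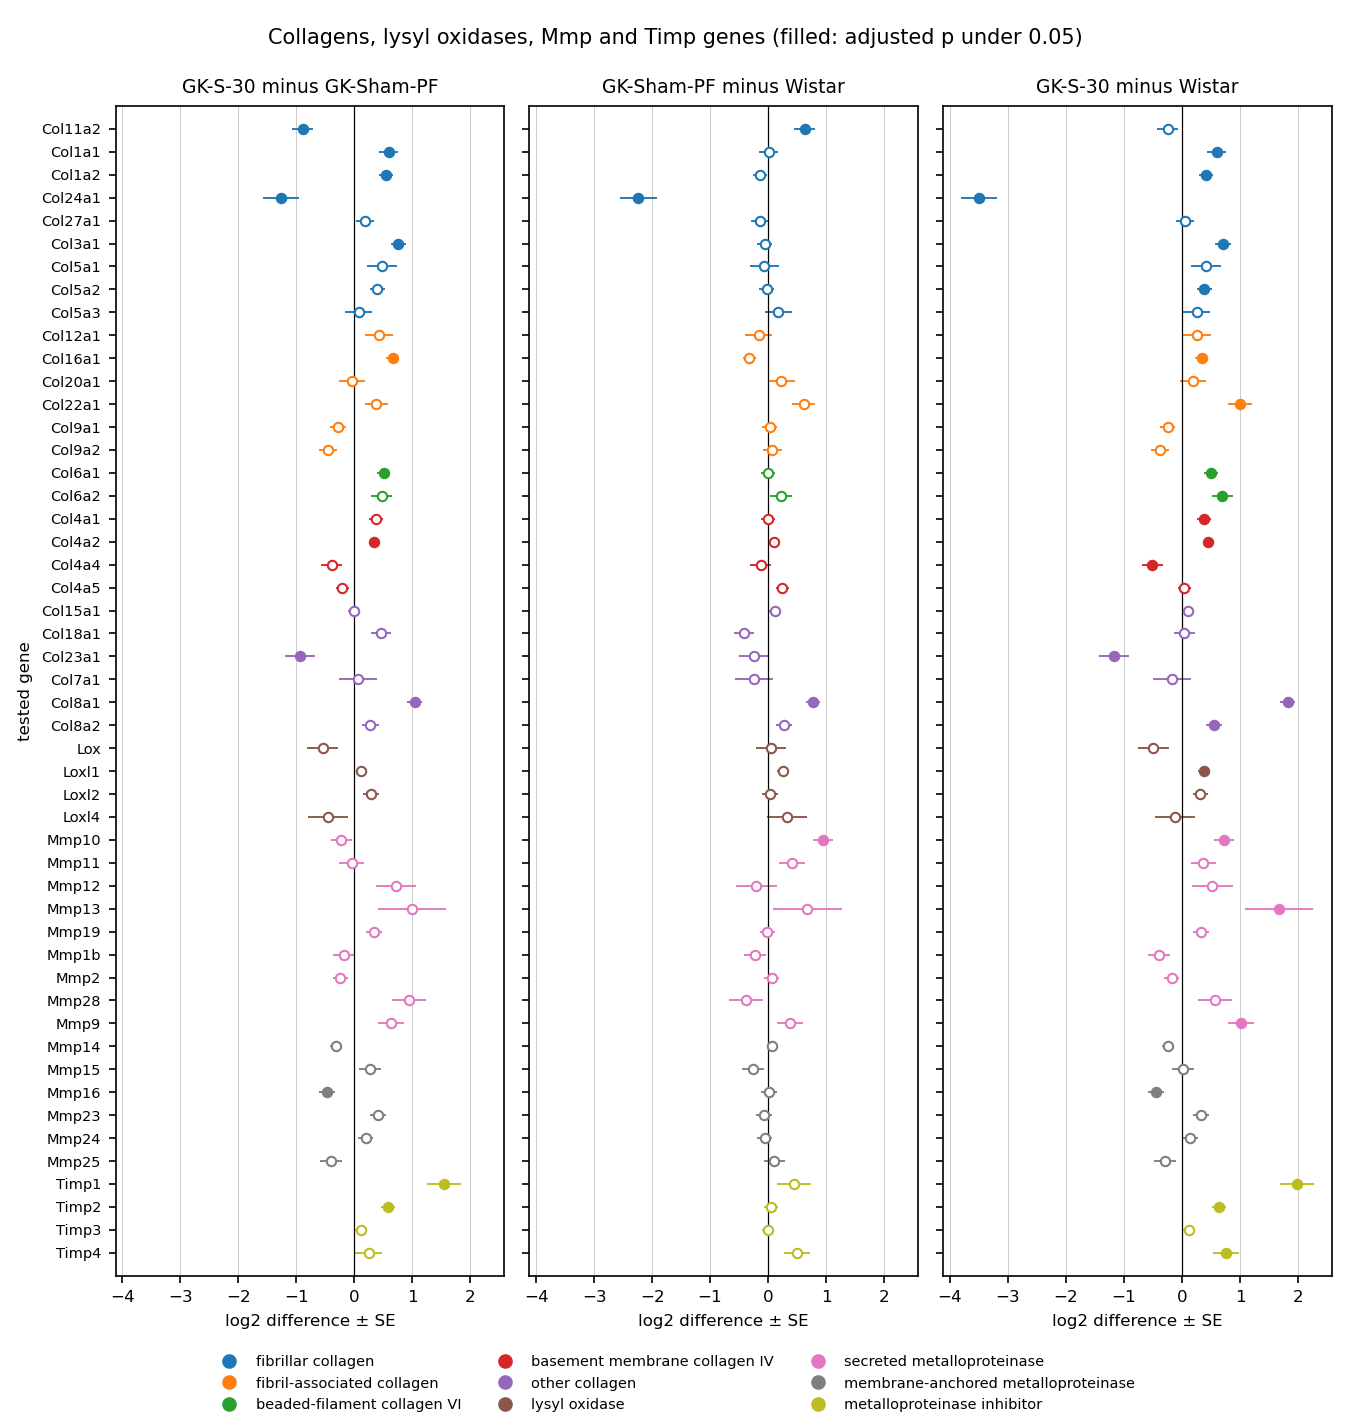
Log2 difference with its SE for the 50 tested genes (rows, coloured by role) in the 3 pairs of groups (panels); filled points have an adjusted p under 0.05. Timp1 lies farthest right, at 1.99 in GK-S-30 minus Wistar, and Col24a1 farthest left, where its GK-S-30 signal was below background and the point is no measured size; most collagen and Timp points lie right of 0 in the left and right panels.

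The inhibitor Timp1, a secreted protein that also acts as a growth factor for some cells, had the largest rise of these genes after RYGB. Its log2 signal was 10.18, 10.50, 9.75, 10.42 and 8.52 on the Wistar arrays, 9.92, 10.53, 10.47, 10.32 and 10.34 on the sham arrays and 11.86, 11.69, 11.55, 12.05 and 12.15 on the RYGB arrays. All 5 RYGB arrays lay above the other 10, while those of Wistar and sham rats overlapped, with Wistar replicate 5 the lowest. The difference was 1.54 ± 0.29 (log2 ± SE, n = 5 a group) between RYGB and sham rats, a 2.91-fold rise (adjusted p = 0.0045), and 1.99 ± 0.29 against Wistar rats, a 3.97-fold rise (adjusted p = 1.7e-04). Sham and Wistar rats differed by 0.45 ± 0.29, which did not pass (adjusted p = 0.442). Its probe lies at chrX:12542700-12543703 in rn4, the build of the files.

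Timp2, which inhibits metalloproteinases and with Mmp14 also helps to activate Mmp2, read 13.58, 13.36, 14.02, 13.35 and 13.52 in Wistar rats, 13.64, 13.50, 13.60, 13.73 and 13.61 in sham rats and 14.37, 14.33, 14.06, 13.99 and 14.27 in RYGB rats. Every RYGB array lay above every sham array, but Wistar replicate 3, a dim array, reached into the RYGB range. The rise was 0.59 ± 0.12 over sham (adjusted p = 0.00822) and 0.63 ± 0.12 over Wistar rats (adjusted p = 0.00151), 1.5-fold and 1.55-fold.

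Timp3, the inhibitor that stays bound to the matrix, read 6.28, 6.74, 6.28 and 6.59 on 4 Wistar arrays, the spot of replicate 1 having been marked as an outlier and left out, 6.44, 6.60, 6.41, 6.48 and 6.46 on the sham arrays and 6.56, 6.64, 6.66, 6.61 and 6.52 on the RYGB arrays. The 3 groups overlapped, and its differences were 0.12 ± 0.10 and 0.12 ± 0.10 (adjusted p = 0.514 and 0.409). Timp4, at a signal near background, read 4.89, 3.90, 3.90, 4.33 and 4.20 in Wistar, 4.45, 5.02, 4.89, 4.94 and 4.44 in sham and 4.42, 5.52, 4.78, 5.37 and 4.89 in RYGB rats. It passed in RYGB against Wistar rats, by 0.75 ± 0.23 (adjusted p = 0.0226), although the groups overlapped. That call was lost, with adjusted p up to 0.0569, without Wistar replicate 2 or 3 or RYGB replicate 2 or 4.

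Of the 9 tested fibrillar collagens, 3 rose after RYGB compared with sham rats and 2 fell, where 5.16% and 4.47% of all genes did. The 3 that rose are the chains of collagens I and III, the bulk of the fibrils in the gut wall. Col3a1, the only chain of collagen III, read 12.19, 12.08, 12.49, 11.87 and 12.22 in Wistar rats, 12.06, 12.14, 12.16, 12.41 and 11.80 in sham rats and 12.86, 13.05, 12.96, 12.58 and 12.94 in RYGB rats. The lowest RYGB array lay above the highest of the other 10. The rise was 0.76 ± 0.13 over sham and 0.71 ± 0.13 over Wistar rats, 1.7-fold and 1.63-fold (adjusted p = 0.00238 and 0.00116).

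Col1a1, which gives 2 of the 3 chains of a collagen I molecule, read 9.71, 10.04, 10.77, 9.66 and 10.10 in Wistar rats, 10.03, 10.08, 10.12, 9.94 and 10.14 in sham rats and 10.84, 10.51, 10.77, 10.57 and 10.60 in RYGB rats. RYGB lay wholly above sham, and the dim Wistar replicate 3 lay within the RYGB range. The rise was 0.60 ± 0.16 over sham and 0.60 ± 0.16 over Wistar rats (adjusted p = 0.0338 and 0.0142). The first of these calls was lost without any of sham replicates 1 to 4 or RYGB replicates 1, 3 and 5, with log2 differences from 0.55 to 0.63 and adjusted p up to 0.0752. The 2 dimmer Col1a1 probes gave smaller differences in the same direction, 0.32 and 0.15 over sham rats.

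Col1a2, the other collagen I chain, read 12.51, 12.32, 12.90, 12.37 and 12.69 in Wistar rats, 12.43, 12.55, 12.43, 12.60 and 12.09 in sham rats and 13.10, 12.88, 12.98, 12.84 and 13.02 in RYGB rats. Here too RYGB lay above all sham arrays and overlapped with Wistar replicate 3. The rises were 0.54 ± 0.12 and 0.41 ± 0.12 (adjusted p = 0.0118 and 0.0221), and the call against Wistar rats was lost without Wistar replicate 2 or 4 or RYGB replicate 1 (adjusted p up to 0.0582).

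Of collagen V, which is built into collagen I fibrils, Col5a2 passed against Wistar rats, at 0.38 ± 0.13 (adjusted p = 0.0417), and not against sham rats, at 0.40 ± 0.13 (adjusted p = 0.0664). Its 3 probes gave between 0.38 and 0.42 against Wistar rats, but the call was lost on leaving out any of 10 of the 15 arrays, all but Wistar replicate 3, sham replicates 2, 4 and 5 and RYGB replicate 4 (adjusted p up to 0.106). Col5a1 and Col5a3 did not pass in any pair, with differences from sham of 0.48 ± 0.26 and 0.08 ± 0.23, nor did Col27a1, at 0.19 ± 0.15.

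**Figure D3:**
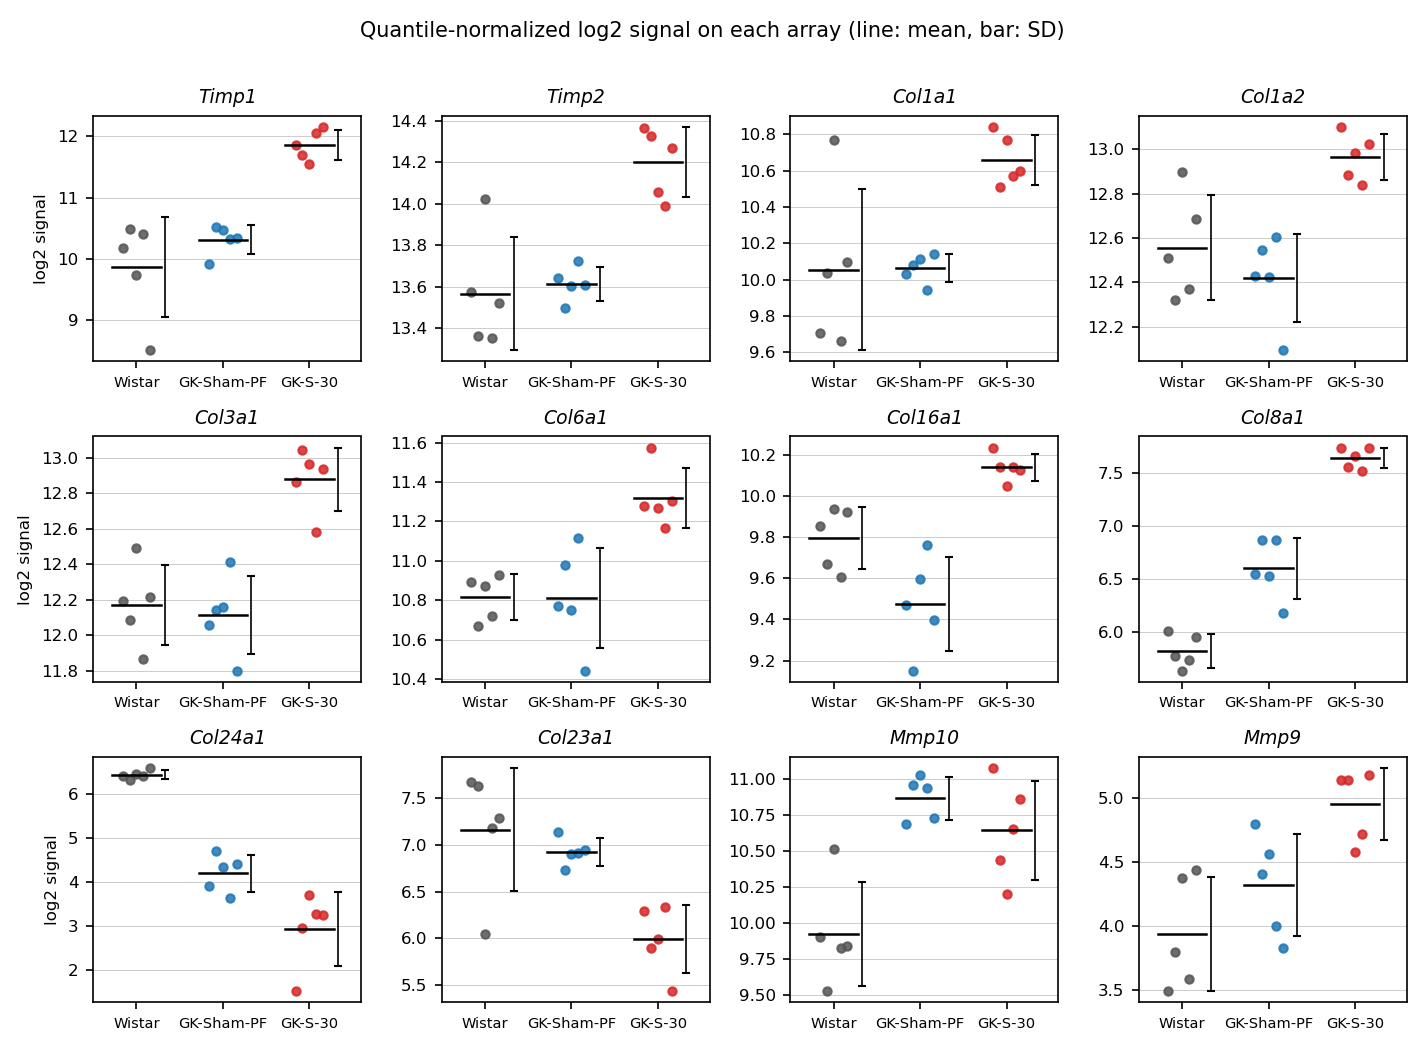
Quantile-normalized log2 signal on each array (points) of 12 genes in the 3 groups, with the group mean (line) and SD (bar); the vertical axes differ between genes. GK-S-30 points lie above all GK-Sham-PF points for Timp1, Timp2, Col1a1, Col1a2, Col3a1, Col6a1, Col16a1 and Col8a1 and below them for Col23a1.

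The fibrillar chains Col24a1 and Col11a2 went the other way. Col24a1, a minor fibrillar collagen known mainly from bone, read 6.41, 6.32, 6.46, 6.42 and 6.59 in Wistar rats, 3.92, 4.71, 4.33, 3.65 and 4.41 in sham rats and 1.52, 2.96, 3.71, 3.27 and 3.26 in RYGB rats. The Wistar arrays lay wholly above both GK groups, while the highest RYGB array lay just above the lowest sham array. No RYGB array was well above background, so only a bound can be given, which holds on this scale: at least 7.44-fold lower than in Wistar rats and at least 1.58-fold lower than in sham rats. A bound sets the bright group's mean against the RYGB mean. Each RYGB array below its lowest signal that was well above background was first raised to that signal. The bounds were not tested. The calls come from limma on the measured signals below background (adjusted p = 1.3e-06 and 0.0203). Sham rats, measured on all arrays, were 4.71-fold lower than Wistar rats (log2 -2.24 ± 0.31, adjusted p = 2.1e-04). The call against sham rats was lost without sham replicate 2 (adjusted p = 0.0553), with the 2 groups alone (0.0585), by the Tukey test with Benjamini-Hochberg adjustment (0.112) and with normexp background correction (0.329). With normexp, which compresses low signals, the difference from sham rats was -0.10, and those of sham and RYGB from Wistar rats were -0.71 and -0.81, both still called. The probe lies at chr2:243727511-243727570 (rn4), and the gene's other probe was not tested.

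Col11a2, a fibrillar chain best known from cartilage, read 8.07, 7.91, 7.61, 7.87 and 7.72 in Wistar rats, 8.23, 8.83, 8.54, 8.80 and 7.95 in sham rats and 7.25, 7.31, 8.02, 7.62 and 7.74 in RYGB rats. It was higher in sham than in Wistar rats, by 0.64 ± 0.18 (adjusted p = 0.0399), and lower after RYGB, by -0.88 ± 0.18 (adjusted p = 0.00687), and the arrays overlapped slightly in both cases. Its level in RYGB rats did not differ past the threshold from that in Wistar rats, at -0.25 ± 0.18 (adjusted p = 0.338). The rise in sham rats was lost without any of Wistar replicates 2 to 5, sham replicates 2 to 4 or RYGB replicates 4 and 5 (adjusted p up to 0.105).

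Among the 6 tested collagens that attach to fibrils, Col16a1 rose after RYGB and no chain fell. Against sham rats 5.16% of all genes rose and 4.47% fell. Col16a1, found at the surface of fibrils and near epithelium and smooth muscle, read 9.86, 9.67, 9.94, 9.61 and 9.92 in Wistar rats, 9.47, 9.15, 9.60, 9.76 and 9.40 in sham rats and 10.24, 10.14, 10.05, 10.14 and 10.13 in RYGB rats. All RYGB arrays lay above the other 10, and the sham mean was the lowest. The rise was 0.67 ± 0.11 over sham rats (adjusted p = 0.00167) and 0.34 ± 0.11 over Wistar rats (adjusted p = 0.0314), and the latter call was lost without Wistar replicate 2 or 4 or RYGB replicate 1, 4 or 5 (adjusted p up to 0.0796).

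Col22a1, a collagen of tissue junctions such as those of muscle and tendon, read 3.22, 3.74, 4.12, 3.93 and 3.52 in Wistar rats, 4.42, 4.62, 4.67, 4.11 and 3.79 in sham rats and 4.45, 4.30, 4.91, 4.97 and 4.90 in RYGB rats. It was 2-fold higher in RYGB than in Wistar rats with no overlap (adjusted p = 0.00214), and sham lay between them without passing in either comparison (adjusted p = 0.079 and 0.27). Its signal was near background and 4 of 5 Wistar arrays were well above it. Col12a1, Col20a1, Col9a1 and Col9a2 passed in no pair; their differences after RYGB ran from -0.45 for Col9a2 to 0.43 for Col12a1.

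Both tested chains of collagen VI were higher in RYGB than in Wistar rats, where 12.4% of all genes were higher. Col6a1 read 10.89, 10.67, 10.87, 10.72 and 10.93 in Wistar rats, 10.77, 10.98, 10.75, 11.12 and 10.44 in sham rats and 11.28, 11.58, 11.27, 11.17 and 11.30 in RYGB rats, and Col6a2 read 7.95, 7.97, 7.70, 7.96 and 8.03, 8.41, 8.36, 8.10, 8.32 and 7.53 and 8.79, 8.98, 8.89, 8.17 and 8.25 in the same order. For Col6a1 no other array reached the RYGB range; for Col6a2 this held for the Wistar arrays alone. Col6a1 rose by 0.51 ± 0.12 over sham and 0.50 ± 0.12 over Wistar rats (adjusted p = 0.0157 and 0.00616). Col6a2 rose by 0.69 ± 0.18 over Wistar rats (adjusted p = 0.0122), while its 0.47 ± 0.18 over sham rats did not pass (adjusted p = 0.13).

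Collagen IV of the basement membrane was measured by 4 chains, and they did not move as a group. Among all genes 12.4% were higher and 13.8% lower in RYGB than in Wistar rats, and 5.16% and 4.47% than in sham rats. Arrays did not overlap for 19.5% of all genes in the first of these pairs and for 8.99% in the other. Col4a1 and Col4a2, the chains found in nearly every basement membrane, whose starts are printed above, were higher in RYGB than in Wistar rats by 0.38 ± 0.12 and 0.46 ± 0.09 (adjusted p = 0.0239 and 0.00184). Col4a1 read 10.94, 10.95, 10.76, 10.59 and 10.84 in Wistar, 10.62, 11.004, 10.93, 11.07 and 10.48 in sham and 11.18, 11.21, 11.12, 11.26 and 11.23 in RYGB rats, and Col4a2 read 7.50, 7.49, 7.46, 7.23 and 7.42, 7.47, 7.67, 7.53, 7.56 and 7.41 and 7.98, 7.98, 7.96, 7.86 and 7.62 in that order. The RYGB arrays lay above all Wistar arrays for both chains, and for Col4a1 above all sham arrays as well. Against sham rats Col4a2 passed, at 0.35 ± 0.09 (adjusted p = 0.0261), and Col4a1, at 0.38 ± 0.12, fell short (adjusted p = 0.0508).

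These values had limits of their own. The Col4a2 call against sham rats was lost without any of sham replicates 1, 3 and 5 or RYGB replicates 1 to 3 (adjusted p up to 0.0632), and the Col4a1 call against Wistar rats without Wistar replicate 4 (adjusted p = 0.0631). A dimmer Col4a1 probe gave a log2 difference of 0.01 from Wistar and -0.14 from sham rats. Col4a4, a chain of more specialised basement membranes, was lower in RYGB than in Wistar rats by -0.51 ± 0.18 (adjusted p = 0.0472), a call lost without any of 12 arrays, all but sham replicates 4 and 5 and RYGB replicate 2 (adjusted p up to 0.0983). Col4a5 did not pass in any pair.

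Col8a1, a short-chain collagen of vessel walls and of the matrix around growing and migrating smooth muscle cells, was the only one of the 50 genes that rose in each of the 3 pairs. It read 6.02, 5.77, 5.64, 5.74 and 5.96 in Wistar rats, 6.55, 6.88, 6.53, 6.87 and 6.19 in sham rats and 7.74, 7.56, 7.66, 7.53 and 7.74 in RYGB rats. The 3 groups formed 3 separate ranges with Wistar lowest and RYGB highest. Sham exceeded Wistar rats by 0.78 ± 0.13 (adjusted p = 7.9e-04), RYGB exceeded sham rats by 1.04 ± 0.13 (adjusted p = 1.7e-04) and Wistar rats by 1.82 ± 0.13 (adjusted p = 8.7e-08), the last being a 3.53-fold rise. The probe lies at chr11:43733411-43733470 (rn4).

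Col8a2, its partner chain, read 4.42, 4.49, 4.04, 4.54 and 4.45 in Wistar rats, 4.81, 4.78, 4.55, 4.99 and 4.19 in sham rats and 5.17, 4.78, 5.07, 4.81 and 4.88 in RYGB rats, near background. It passed against Wistar rats with no overlap, by 0.55 ± 0.14 (adjusted p = 0.0108), and its sham arrays overlapped both other groups. The transmembrane collagen Col23a1 was lower after RYGB. It read 7.68, 7.63, 6.05, 7.18 and 7.29 in Wistar rats, 7.14, 6.73, 6.90, 6.92 and 6.94 in sham rats and 6.29, 5.89, 5.997, 6.34 and 5.43 in RYGB rats, so that RYGB lay below all sham arrays, and Wistar replicate 3 lay within the RYGB range. The fall was -0.94 ± 0.26 from sham and -1.17 ± 0.26 from Wistar rats (adjusted p = 0.0327 and 0.00358), and the first call was lost without any single sham array or RYGB replicate 2, 3 or 5 (adjusted p up to 0.0844). Col7a1, Col15a1 and Col18a1 passed in no pair, with differences after RYGB from -0.01 for Col15a1 to 0.46 for Col18a1.

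None of the 4 tested lysyl oxidases passed between RYGB and sham rats, where 9.64% of all genes did, with 1 of them under an unadjusted p of 0.05 in limma and none under 0.05 by Tukey's test. Lox itself read 6.12, 6.85, 6.38, 5.70 and 5.79 in Wistar rats, 6.003, 6.11, 6.66, 6.48 and 5.83 in sham rats and 5.19, 6.36, 6.14, 5.32 and 5.35 in RYGB rats. The groups overlapped, and the differences of -0.54 ± 0.26 and -0.49 ± 0.26 did not pass (adjusted p = 0.227 and 0.186). Loxl1, best known for the cross-linking of elastin, read 10.20, 10.38, 10.34, 10.03 and 10.15 in Wistar rats, 10.56, 10.42, 10.40, 10.58 and 10.39 in sham rats and 10.59, 10.67, 10.41, 10.74 and 10.57 in RYGB rats. Both GK groups lay above all Wistar arrays and overlapped each other, and the gene passed for RYGB, at 0.37 ± 0.09 (adjusted p = 0.00704), and not for sham, at 0.25 ± 0.09 (adjusted p = 0.114). Loxl2 and Loxl4 differed from sham rats by 0.29 ± 0.13 and -0.45 ± 0.35, which did not pass.

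Of the 9 tested secreted metalloproteinases none was called between RYGB and sham rats. Among all genes 9.64% were, so for so few genes none called is near the share of all genes. An unadjusted p under 0.05 was reached by 3 of the 9 in limma and by 1 in Tukey's test. Mmp10, or stromelysin 2, which cuts a broad range of matrix proteins, was higher in sham than in Wistar rats. It read 9.91, 9.53, 10.52, 9.82 and 9.84 in Wistar rats, 10.69, 10.96, 11.03, 10.94 and 10.73 in sham rats and 11.08, 10.44, 10.20, 10.65 and 10.87 in RYGB rats. Sham lay wholly above Wistar, and RYGB overlapped both. The difference from Wistar was 0.95 ± 0.18 in sham rats (1.93-fold, adjusted p = 0.0029) and 0.72 ± 0.18 in RYGB rats (1.65-fold, adjusted p = 0.00813), and RYGB and sham rats differed by -0.22 ± 0.18 (adjusted p = 0.503).

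Mmp9, or gelatinase B, which is carried by neutrophils and made by macrophages, read 3.49, 3.80, 4.38, 3.58 and 4.43 in Wistar rats, 4.79, 4.40, 4.56, 4.001 and 3.83 in sham rats and 5.14, 5.14, 4.58, 4.72 and 5.18 in RYGB rats. It was well above background on 2, 3 and 5 arrays of these groups and entered the test only through RYGB, so its levels are given as a description with no test. The RYGB arrays lay above all Wistar arrays. Of the 3 tested neutrophil markers, S100a8 and S100a9 were higher in RYGB than in Wistar rats, S100a9 by 2.01, and Mpo differed by 0.08 (adjusted p = 0.925). Of 8 macrophage markers, Itgam, Mrc1, Cd68 and Aif1 were lower and Adgre1 was higher in that pair. The part of these cells was not tested. Mmp13, or collagenase 3, which cuts fibrillar collagen, read 4.37, 5.24, 4.28, 4.49 and 3.98 in Wistar rats, 5.06, 5.02, 5.74, 4.73 and 5.21 in sham rats and 7.87, 4.63, 4.06, 7.11 and 7.07 in RYGB rats. The RYGB rats split, with replicates 1, 4 and 5 at 7.07 or above and replicates 2 and 3 within the range of the other groups. Its difference from Wistar rats, 1.68 ± 0.59, barely passed (adjusted p = 0.0472) and did not pass without any of 12 arrays, all but Wistar replicate 2 and RYGB replicates 2 and 3 (adjusted p up to 0.117).

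Mmp2, or gelatinase A, a main metalloproteinase of fibroblasts, differed from sham rats by -0.24 ± 0.13 after RYGB and did not pass (adjusted p = 0.285). The macrophage elastase Mmp12, at 0.72 ± 0.35, and Mmp28, at 0.94 ± 0.29, also fell short (adjusted p = 0.223 and 0.0561). Mmp1b, Mmp11 and Mmp19 passed in no pair. Of the 6 membrane-anchored enzymes, Mmp16 alone was called. Among all genes 4.47% were lower in RYGB than in sham rats and 13.8% lower than in Wistar rats. Mmp16 was lower in RYGB rats, by -0.46 ± 0.14 from sham and -0.44 ± 0.14 from Wistar rats (adjusted p = 0.0483 and 0.0295). RYGB replicate 2 lay within the range of the other groups, a dimmer probe of the gene gave 0.10 and -0.07, and the call against sham rats was lost without any of 12 arrays, all but Wistar replicate 3 and RYGB replicates 2 and 4 (adjusted p up to 0.105). That against Wistar rats was lost without Wistar replicate 1, 2 or 5 or RYGB replicate 1, 3 or 5 (adjusted p up to 0.0704). Mmp14, the membrane enzyme that activates Mmp2, read between 11.64 and 11.96 in RYGB and between 11.87 and 12.28 in sham rats, a difference of -0.31 ± 0.10 that did not pass (adjusted p = 0.06). Mmp15, Mmp23, Mmp24 and Mmp25 passed in no pair.

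Dimmer tested probes of the called genes mostly moved with the brightest one. Against sham rats, 5 of 6 such probes of 5 genes had the same direction, and against Wistar rats 11 of 11 of 9 genes had it. Some of the 11 lay near 0, at 0.01 for Col4a1, -0.07 for Mmp16 and 0.14 for Col8a2. The brightest probes gave 0.38, -0.44 and 0.55, and these calls against Wistar rats were lost with a gene's tested probes averaged. The size of the differences of dim genes depended on the background correction. With normexp, Col8a1 was 0.66 higher in RYGB than in sham rats and 0.96 higher than in Wistar rats, sham exceeded Wistar rats by 0.30, Col23a1 stood at -0.47 and -0.64 and Col4a2 at 0.23 and 0.30 in RYGB against sham and Wistar rats, and all of these were still called. Against Wistar rats Col22a1 became 0.22, Timp4 0.20, Mmp13 0.75 and Mmp16 -0.20, also called, and Col8a2 0.13 and Col4a4 -0.26, not called (adjusted p = 0.0855 and 0.0547). Mmp16 became -0.21 against sham rats and was not called (adjusted p = 0.0662).

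The comparison with sham rats could be repeated on slide C alone, which held 2 arrays of each group. All 13 called genes kept their direction there, the 9 that rose with log2 differences between 0.49 and 1.44 and Col11a2, Col23a1 and Mmp16 with differences of -1.10, -0.84 and -0.29. Col24a1 was lower there too, with its RYGB signal below background. The sham arrays of slide C were replicate 4, with the high smooth muscle level, and the dim replicate 5, and the 13 genes had been called partly on these arrays. With slide as a fixed term in limma, the RYGB to sham difference equals that of slide C, so its direction is no further check. Of the 13, Col8a1 (adjusted p = 0.0188) and Col24a1 (adjusted p = 0.0414) remained past the threshold. Over all genes 285 were then called in place of 1254. For sham against Wistar rats, the 4 called genes kept their direction on slide B, 3 arrays against 1. With the slide term this difference equals that of slide B and so rests on 1 Wistar array, replicate 1. It was -2.09 for Col24a1 and 1.35 for Col22a1, given without a test. RYGB and Wistar rats share no slide, so with the slide term their difference is joined through the sham rats of slides B and C. It rests on the same single Wistar array. The called genes kept their direction, and no calls are given. The difference was 1.76 for Col8a1 and 1.77 for Col22a1, whose signal on that array, 3.22, was the lowest of the Wistar arrays. Col24a1 was lower, with its RYGB signal below background. Mmp9, which entered the test through the RYGB group alone, is left out of this.

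The rises of the collagens came with the higher smooth muscle level of the RYGB arrays, whose part in them was not tested; of the 9 fibroblast markers, Dpt rose alone, by 0.56 ± 0.16 (adjusted p = 0.0418). With that level added to the model as a covariate, 1 of the 13 genes was called between RYGB and sham rats, Col11a2, and over all genes 143 were called; the level is nearly a label of the group, and the standard errors grew. The estimate for Col6a1 became -0.03 ± 0.22 and those for Col3a1, Col16a1 and Col1a2 became 0.33 ± 0.27, 0.35 ± 0.23 and 0.28 ± 0.27. Col8a1 stood at 0.47 ± 0.23. The estimates for Timp1, at 1.77 ± 0.67, Timp2, at 0.55 ± 0.28, and Col1a1, at 1.07 ± 0.35, were near or above those without the covariate. Without the dim arrays and sham replicate 4, whose smooth muscle level was high, 11 of the 13 genes remained past the threshold, all but Col4a2 and Mmp16.

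**Figure D4:**
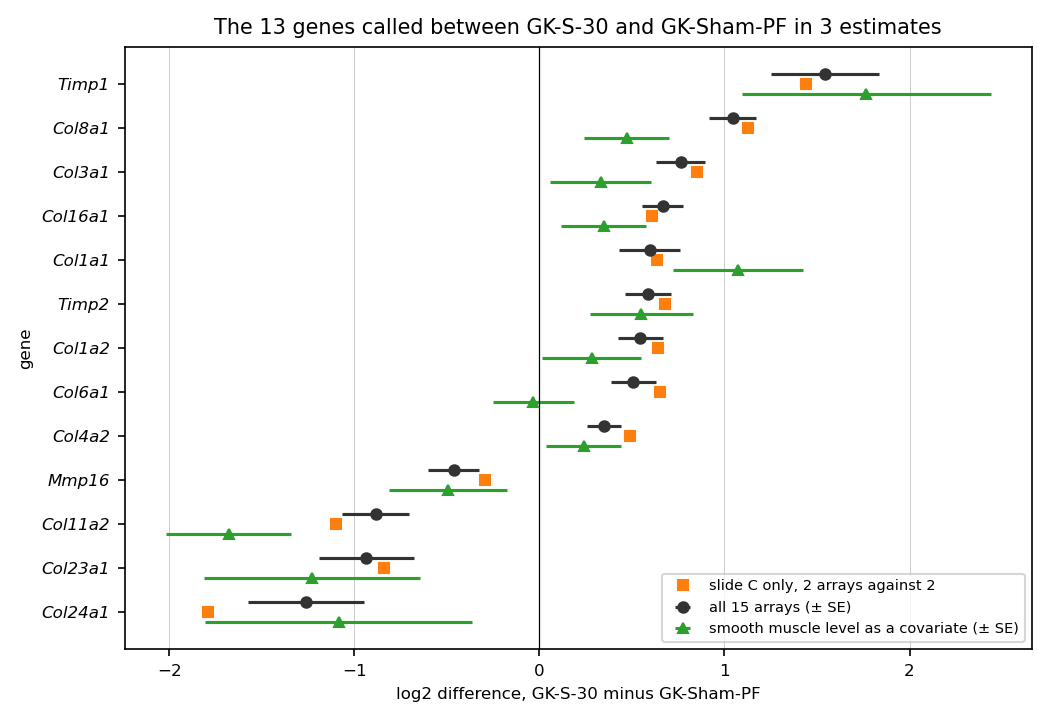
Log2 difference of RYGB (GK-S-30) minus sham (GK-Sham-PF) rats for the 13 called genes (rows) from all 15 arrays with its SE (circles), from the 2 against 2 arrays of slide C (squares) and with the smooth muscle level as a covariate with its SE (triangles). All squares lie on the same side of 0 as the circles. The values of Col24a1 rest on GK-S-30 signals below background. The triangle of Col6a1 lies near 0 and that of Timp1 to the right of its circle.

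Of 21 tested genes that modify and process collagen, 8 were higher in RYGB than in Wistar rats and none lower, where 12.4% of all genes were higher and 13.8% lower. The median was 0.20, and 13 of the 21 had a higher mean. Those that were higher were led by P3h3, P4ha1 and P3h1, hydroxylases of collagen prolines, at 2.29, 0.97 and 0.78 (adjusted p = 1.5e-10, 0.0265 and 1.1e-04). P3h3 and P3h1 were the 2 called in sham against Wistar rats, at 2.34 and 0.52, where 8.82% of all genes were called. Between RYGB and sham rats 1 was called, where 9.64% of all genes were. It was Bmp1, the enzyme that trims the end of procollagens, at 0.34 ± 0.08 (adjusted p = 0.0181).

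Among 6 tested collagen receptors, the integrin chain Itgb1 was higher in RYGB than in sham and Wistar rats, by 0.45 and 0.44 (adjusted p = 0.0165 and 0.00727). The collagen-binding kinase Ddr1 was lower in both GK groups than in Wistar rats, by -0.81 in sham and -0.70 in RYGB rats. Over all genes 9.64% were called between RYGB and sham, 8.82% between sham and Wistar and 26.2% between RYGB and Wistar rats. For so few genes the receptor counts are near these shares. Of 22 other interstitial matrix proteins, 3 rose and 2 fell after RYGB compared with sham rats, where 5.16% and 4.47% of all genes did. Those that rose were tenascin C (Tnc), fibronectin (Fn1) and lumican (Lum), at 1.44 ± 0.16, 1.22 ± 0.14 and 1.15 ± 0.22 (adjusted p = 8.7e-05, 1.4e-04 and 0.00497), and the small proteoglycans fibromodulin (Fmod) and osteoglycin (Ogn) fell, at -0.74 and -0.60 (adjusted p = 0.0303 and 0.0290). Against Wistar rats 6 were higher and 2 lower, where 12.4% of all genes were higher and 13.8% lower, with Tnc at 1.92. In sham against Wistar rats Mfap5 was higher, at 0.99, and Fmod lower, at -0.82, where 4.19% and 4.63% of all genes were.

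Among basement membrane proteins other than collagen IV, the laminin chain Lamb3 was higher in RYGB than in sham rats by 1.52 ± 0.30 (adjusted p = 0.00538) and agrin (Agrn) by 0.55, and nidogen 2 (Nid2) was lower, at -0.56. Against Wistar rats Nid1 and Lamb3 were higher, at 1.39 and 1.08, and Nid2 was lower, at -0.94, and Nid1 was also higher in sham than in Wistar rats, at 0.92. Of 18 genes of the TGF-beta axis, which drives matrix production in many tissues, 1 rose after RYGB compared with sham rats and none fell, a share near that of all genes (5.16% and 4.47%). It was the latent binding protein Ltbp1, at 0.53 ± 0.10 (adjusted p = 0.00444). Ltbp2 was lower in sham than in Wistar rats, at -1.25, and Tgfbr1 was lower in RYGB than in Wistar rats, at -0.52.

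Of 22 other matrix proteases and regulators, 3 rose after RYGB compared with sham rats and none fell, against 5.16% and 4.47% of all genes. They were the protease inhibitor Serpine2, at 0.98 ± 0.21, the urokinase receptor Plaur, at 0.60 ± 0.15, and Adam9, at 0.44 ± 0.09 (adjusted p = 0.00879, 0.0201 and 0.00682). None was called between sham and Wistar rats, where 8.82% of all genes were. In RYGB against Wistar rats 5 were higher and 2 lower, where 12.4% of all genes were higher and 13.8% lower. Those higher were led by Serpine2, at 1.41, and the brush border protease Mep1b, at 1.06. Those lower were the cathepsins Ctss and Ctsb, at -0.45 and -0.25.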

How the data were processed

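Whole-genome expression was measured on 1-colour Agilent rat arrays, 1 per rat, with 5 rats in each of the 3 groups. The authors deposited scanner output from Agilent Feature Extraction (version 10.7.3.1 per the file headers), in which the processed signal, a linear intensity, had a fitted spatial background subtracted and a multiplicative trend divided out. The value table they also deposited holds log2 values, which correlated at 1 with the values used here and served as an alternative.

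In R 4.3.3, limma 3.58.1 was used to quantile-normalize the log2 intensities; control spots and outlier flags were left out, and spots of a probe were averaged. No column was left out for want of a sample (0 such columns). Genes were named through RefSeq accessions (17541 probes), symbols (3099) or synonyms (539), with the file's name kept for 1324; each was represented by its brightest probe. The filter kept the 13013 of 17338 genes that stood well above background on all arrays of any group. limma with empirical Bayes moderation was fitted on all 15 arrays with the 3 pairs of groups as contrasts and Benjamini-Hochberg adjustment at 0.05. Groups and replicates came from the labels, and p-values measure the spread between these rats. The number of arrays limits the precision; the median standard error of a difference was 0.15. No spot was saturated.

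Alternatives were the scaling, the background correction, the filter, the probes averaged, the slide and replicate number as blocks, the 2 groups alone, the methods' Tukey test and each array left out. Genes named were those called in any pair and others that complete a role group, and in the pathway lists up to 3 called genes per list and pair with the largest change; per-array values were printed for called genes whose arrays did not overlap, the Timp genes and Lox. Per-array values of Col11a2 and Mmp13, and Agrn, Fmod, Ogn, Nid2, Ctss, Ctsb and the named cell type markers, were added after their values were seen. The genes and the pathway and cell type lists were chosen with earlier results of these data known. The counts of the basement membrane list are not reported here. Scripts were tested on simulated data. Sequences and motif counts came from RefSeq (GRCr8). Probe positions are those of the files (rn4) and were not remapped.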

Additional observations from a re-analysis of the deposited data

Results flagged for a closer look

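Among 89 groups of 5 arrays examined, for 26 genes and 4 marker levels, 4 held an array far from the other 4 by Dixon's test, where chance gives about 1 in 20. On Wistar replicate 3, one of the 2 dim arrays, the log2 signal of Col6a2 was 7.696 against 7.954 to 8.027 on the other Wistar arrays (gap over range 0.779). On the same array Col8a2 was 4.039 against 4.418 to 4.542 (0.753), and the enterocyte level was -0.287 against 0.064 to 0.166 (0.775). On sham replicate 4 the smooth muscle level was 0.262 against -0.803 to -0.524 (0.738). Without the 2 dim arrays and sham replicate 4, 21 of the 23 genes called between RYGB and Wistar rats remained past the threshold. Col6a2 and Col8a2 were among them, and both counts include Mmp9.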

How the results depend on the processing

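Beside the values reported, 30 other settings were tried, of which 2, the smooth muscle covariate and leaving out 3 arrays, were chosen after seeing the data. Of the 40 calls, counted over genes and pairs with that of Mmp9 among them, 37 kept their direction in every setting that gave a value. The exceptions came with the smooth muscle covariate: Col6a1 at -0.0326 against sham and -0.0053 against Wistar rats, and Timp4 at -0.0631 against Wistar rats. That covariate left 1 of 13 genes called against sham and 2 of 23 against Wistar rats, with medians of 0.0461 and 0.17. With slide as a fixed block 3, 2 and 4 genes were called for RYGB against sham, sham against Wistar and RYGB against Wistar rats, of which 2, 1 and 4 were among those reported, and the first median became 0.40; RYGB and Wistar rats share no slide. The methods' Tukey test without adjustment over genes gave 7 of 50 genes for sham against Wistar rats. Over all genes it gave 1914 of 13013, a share near that of the 50. After Benjamini-Hochberg adjustment it gave 7 genes for RYGB against sham and 13 for RYGB against Wistar rats. Over all 13013 genes it then gave 503 and 2270. Scaling to the 75th percentile moved the medians of RYGB against sham and RYGB against Wistar rats to 0.17 and 0.23. Normexp background correction moved them to 0.0897 and 0.12, and dropping the background filter moved that against Wistar rats to 0.19.

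Leaving out 1 array at a time gave 9 to 15 genes called for RYGB against sham, 3 to 5 for sham against Wistar and 17 to 23 for RYGB against Wistar rats, with medians from 0.18 to 0.29, -0.02 to 0.08 and 0.24 to 0.37. In a setting with the lowest and one with the highest count, 966 and 1492 of all genes were called for RYGB against sham rats. For sham against Wistar rats these were 954 and 1215, and for RYGB against Wistar rats 3007 and 3687. The genes tested in these settings numbered from 13032 to 13101. Replicate numbers did not pair the rats, since 3 of 15 same-number correlations were over 0.1 (range -0.275 to 0.181). With the replicate number as a block 12, 3 and 16 genes were called, all among those reported. Over all 13013 genes 887, 853 and 2850 were then called. Differences in genes near background, such as Mmp9, Timp4 and Col22a1, are limited by their low signal. The cause of these shifts was not tested.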
